A study of Mus musculus with 6 samples.

Results

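The 10 genes described here build the MHC class I presentation pathway of the mouse and were listed by name. They are B2m, H2-D1, H2-K1, H2-T23, Tap1, Tap2, Tapbp, Psmb8, Psmb9 and Psme1, and all 10 of them are among the 18792 genes of the deposited table. The study profiled cells of the spinal cord by droplet-based scRNA-seq to ask how complex I of mitochondria bears on neuroinflammation. Its 6 libraries came from Nd6 mice with experimental autoimmune encephalomyelitis (EAE, 2 libraries), WT mice with EAE (2 libraries), Nd6 control mice (1 library) and WT control mice (1 library). Nd6 mice carry a point mutation in a complex I gene of the mitochondrial genome, so it is not confined to a cell type, and EAE was induced with the myelin peptide MOG35–55. Perfusion was done in all mice with 2 inhibitors of transcription, actinomycin D and triptolide, and debris was removed before the cells were loaded. The sample labels give neither age nor day after immunization.

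The table holds 13614 cells, and no cell is tied to a library. Each cell name ends in 1 of 6 numbers, and cells were grouped by it into sets lettered A to F, from the largest (4633 cells) to the smallest (809 cells). The labels do not say which set is which library, so Nd6 was not compared with WT or EAE with control, and sets are not treated as replicates of any group. In all, 18 barcodes occurred in 2 sets. Values in the table are whole, yet they added up to between 687 and 1578 in every cell (median 962) and the number of genes with a value between 138 and 1287 (median 547), so they were handled as a score and not as UMI counts. The sequencing depth is unknown. Every comparison below is therefore a description of 1 pooled table with no p-value, and the intervals given are exact binomial (Clopper-Pearson) 95% intervals on shares of cells that cover counting error only.

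MHC class I molecules carry peptides of a cell's own proteins to its surface, where CD8 T cells and NK cells read them. Proteins are cut by the proteasome, the peptides are pumped into the endoplasmic reticulum by the TAP transporter, and the peptide loading complex places them on a heavy chain paired with β2-microglobulin. Interferons raise the expression of most genes of the pathway, and in the healthy central nervous system class I levels on neural cells are known to be low.

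B2m encodes β2-microglobulin, the light chain of every class I molecule, and lies on chromosome 2. H2-K1 and H2-D1 encode the classical heavy chains and H2-T23 the non-classical chain Qa-1, a ligand of the NK cell receptor CD94/NKG2A. Tap1 and Tap2 encode the subunits of the transporter, and Tapbp encodes tapasin, which holds the empty heavy chain at the transporter. Psmb8 and Psmb9 encode catalytic subunits that interferon exchanges into the immunoproteasome, and Psme1 encodes the α subunit of the PA28 activator. In the GENCODE annotation of GRCm38, 8 of the 10 genes lie on chromosome 17 within 2.12 Mb, from Tapbp (chr17:33915899-33929292, plus strand) to H2-T23 (chr17:36029773-36032855, minus strand), with H2-K1 at chr17:33996017-34000347 (minus strand) and H2-D1 at chr17:35262730-35267499 (plus strand). B2m lies at chr2:122147686-122153083 (plus strand) and Psme1 at chr14:55578123-55581529 (plus strand). Between H2-K1 and H2-D1 lie Psmb9 (chr17:34181987-34187764, minus strand), Tap1 (chr17:34187553-34197225, plus strand), Psmb8 (chr17:34197721-34201454, plus strand) and Tap2 (chr17:34203527-34216321, plus strand). All 10 are annotated as protein coding. Tap1 and Psmb9 are read in opposite directions from RefSeq starts that have 225 bases between them.

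RefSeq promoter windows on GRCm38.p6 were at hand for 9 of the 10 members. The windows of the B2m and H2-K1 genes are shown because these genes had some of the highest values of the pathway, and because each window holds a match to the core letters recognised by interferon regulatory factors (AANNGAAA) beside a match to the kappaB motif, both marked in capitals on whichever strand they matched. The H2-K1 window is chr17:34000348-34000597 (minus strand) and the B2m window is chr2:122147437-122147686 (plus strand), each the 250 bases before the start.
H2-K1: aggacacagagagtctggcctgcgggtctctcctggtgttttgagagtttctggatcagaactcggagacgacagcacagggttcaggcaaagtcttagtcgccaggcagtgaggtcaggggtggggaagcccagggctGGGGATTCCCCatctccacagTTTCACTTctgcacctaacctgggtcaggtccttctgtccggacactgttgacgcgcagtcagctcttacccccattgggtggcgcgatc
B2m: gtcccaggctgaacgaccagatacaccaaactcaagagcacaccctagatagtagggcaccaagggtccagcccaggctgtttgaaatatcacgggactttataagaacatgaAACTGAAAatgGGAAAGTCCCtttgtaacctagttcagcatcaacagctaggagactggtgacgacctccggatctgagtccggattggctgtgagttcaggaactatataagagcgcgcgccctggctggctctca

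The 2 classical heavy chains share this pair of motifs nearly letter for letter. The stretch that holds it spans 29 bases in each gene, at chr17:34000430-34000458 (minus strand) for H2-K1 and chr17:35262923-35262951 (plus strand) for H2-D1, and 28 of the 29 bases are equal. The H2-D1 stretch lies upstream of the RefSeq start but within the first exon, in the 5′ UTR, of a longer GENCODE transcript that begins at the gene start given above.
H2-K1 element: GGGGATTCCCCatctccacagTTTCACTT
H2-D1 element: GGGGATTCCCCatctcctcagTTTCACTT
On both strands, AANNGAAA was found in 4 of the 9 windows (B2m, H2-D1, H2-K1 and H2-T23) and in 21.6% of the windows of 27025 genes. The kappaB motif was found in 3 of the 9 (B2m, H2-D1 and H2-K1) and in 7.01% of all windows, and the gamma-activated site TTCNNNGAA in 1 of the 9 (Psmb8) and in 7.18% of all windows. CCAAT, the box read by the factor NF-Y, was found in 7 of the 9 and in 34.5% of all windows. These letters were chosen after the windows had been read, and a match does not show a bound site.

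Lineage gates were drawn from marker genes. A cell entered a gate when the summed value of a lineage's markers took at least 3 times its mean share of the cell's total, at least 3 of the markers had a value, no other lineage met this, and at most 7 of 14 myeloid markers had a value. The myeloid gate needed at least 8 of those 14 markers and no other lineage. It held 10688 cells, or 78.5% of the table, with a median of 11 of 14 myeloid markers. The gates with at least 50 cells outside it were the oligodendrocyte (447 cells), endothelial cell (230 cells), ependymal cell (94 cells), astrocyte (83 cells), T cell or NK cell (67 cells) and pericyte or smooth muscle cell gates (53 cells). Cells that met 2 lineages (120) or 1 lineage together with more than 7 myeloid markers (1070) were left out, and no neuron gate could be drawn, since it held 0 cells. Myeloid RNA was present in every gate. Tyrobp, a myeloid adaptor, had a value in 94.1% of myeloid cells, in 33.8% of oligodendrocytes, 28.7% of endothelial cells, 28.4% of T or NK cells and 51.8% of astrocyte-gated cells. Only 16.9% of astrocyte-gated cells had 4 or fewer myeloid markers, against 64.8% of endothelial cells and 53.0% of oligodendrocytes, so values in the astrocyte gate are not read as levels of astrocytes. The gates also differed in the number of genes with a value, with medians of 658.5 in endothelial cells, 558 in myeloid cells and 341 in oligodendrocytes.

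Of the class I chains, B2m was highest in myeloid cells and H2-K1 in T or NK cells, endothelial cells came below both, and ependymal cells were lowest. B2m had a value in 95.7% of myeloid cells (interval 95.3–96.1%), 79.5% of astrocyte-gated cells, 74.6% of T or NK cells (62.5–84.5%), 65.7% of endothelial cells (59.1–71.8%), 58.5% of pericytes or smooth muscle cells, 54.6% of oligodendrocytes (49.8–59.3%) and 22.3% of ependymal cells (14.4–32.1%). Its mean value was 4.69 in myeloid cells, and next came 2.18 in astrocyte-gated cells, 1.72 in T or NK cells, 1.57 in endothelial cells, 1.31 in oligodendrocytes and 0.287 in ependymal cells. In this order only the steps from the myeloid gate to the next and from oligodendrocytes to ependymal cells had intervals that did not overlap.

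H2-D1 and H2-K1 followed another order, in which T or NK cells had the highest pooled shares. H2-D1 had a value in 86.6% of T or NK cells (76.0–93.7%), 78.5% of myeloid cells (77.7–79.3%), 55.7% of endothelial cells (49.0–62.2%), 30.0% of oligodendrocytes (25.8–34.5%) and 14.9% of ependymal cells (8.39–23.7%). H2-K1 had a value in 80.6% of T or NK cells (69.1–89.2%), 65.7% of myeloid cells (64.8–66.6%), 43.5% of endothelial cells (37.0–50.2%), 21.7% of oligodendrocytes (17.97–25.8%) and 10.6% of ependymal cells (5.22–18.7%). Pooled over sets, the T or NK cell interval lay above the myeloid one for H2-K1 and overlapped it for H2-D1. Sets D and E, in which the class I chains were low, held 1 of the 67 T or NK cells, and without them H2-D1 had a value in 87.9% of T or NK cells and 88.1% of myeloid cells. H2-K1 then had a value in 81.8% of T or NK cells and 75.9% of myeloid cells. That myeloid share lies within the T or NK cell interval of 69.1–89.2%. The mean of H2-D1 was lower in T or NK cells than in myeloid cells in both sets that could be compared (1.71 against 2.67 in set A and 2.67 against 2.76 in set B). The mean of H2-K1 was 2.69 in T or NK cells, 1.43 in myeloid cells, 0.787 in endothelial cells and 0.345 in oligodendrocytes.

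H2-T23 was the member in which endothelial cells stood highest relative to myeloid cells among the chains. It had a value in 38.8% of T or NK cells (27.1–51.5%), 27.0% of endothelial cells (21.3–33.2%), 21.0% of myeloid cells (20.2–21.8%), 6.49% of oligodendrocytes (4.39–9.18%) and 1 of 94 ependymal cells. The interval of oligodendrocytes lay below those of myeloid cells, endothelial cells and T or NK cells, while those of endothelial and myeloid cells overlapped.

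The transporter genes were sparse outside lymphocytes. Tap1 had a value in 23.9% of T or NK cells (14.3–35.9%), 6.92% of myeloid cells (6.45–7.42%), 3.04% of endothelial cells (1.23–6.17%) and 0.895% of oligodendrocytes. It had none in 94 ependymal cells, which allows a share of up to 3.19% (taken as 3 counts of the total), and none in 53 pericytes or smooth muscle cells, which allows up to 5.66% by the same rule. Tap2 had a value in 14.9% of T or NK cells (7.40–25.7%), 10.4% of endothelial cells (6.80–15.1%), 7.26% of myeloid cells (6.78–7.77%) and 2 of 447 oligodendrocytes. Tapbp had a value in 23.9% of T or NK cells, 14.6% of myeloid cells, 11.3% of endothelial cells and 4.92% of oligodendrocytes.

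Among the proteasome genes, Psmb8 and Psme1 were highest in myeloid cells. Psmb8 had a value in 29.6% of myeloid cells (28.7–30.5%), 23.9% of T or NK cells (14.3–35.9%), 14.3% of endothelial cells (10.09–19.6%) and 7.61% of oligodendrocytes (5.32–10.47%). Psme1 had a value in 35.0% of myeloid cells, 26.1% of endothelial cells, 25.4% of T or NK cells and 7.38% of oligodendrocytes. Psmb9, which is exchanged into the same immunoproteasome as Psmb8, had a value in 19.4% of T or NK cells, 11.9% of myeloid cells, 10.0% of endothelial cells and 2.24% of oligodendrocytes.

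Counted per cell, the median number of members with a value was 4 of 10 in T or NK cells and in myeloid cells, 3 in endothelial cells, 1 in oligodendrocytes and 0 in ependymal cells. All 67 T or NK cells had a value of at least 1 member, whereas 1.12% of myeloid cells, 12.6% of endothelial cells, 28.9% of oligodendrocytes and 58.5% of ependymal cells had none. These shares pool sets that the gates hold in unequal parts. Sets D and E held 0 and 1 T or NK cells and 25 and 35 of 94 ependymal cells. In myeloid cells the share with no member was 5.29% and 6.26% in sets D and E and 0.0811% to 0.340% in the others. B2m and at least 1 of H2-D1 and H2-K1 had a value together in 84.1% of myeloid cells.

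**Figure D1:**
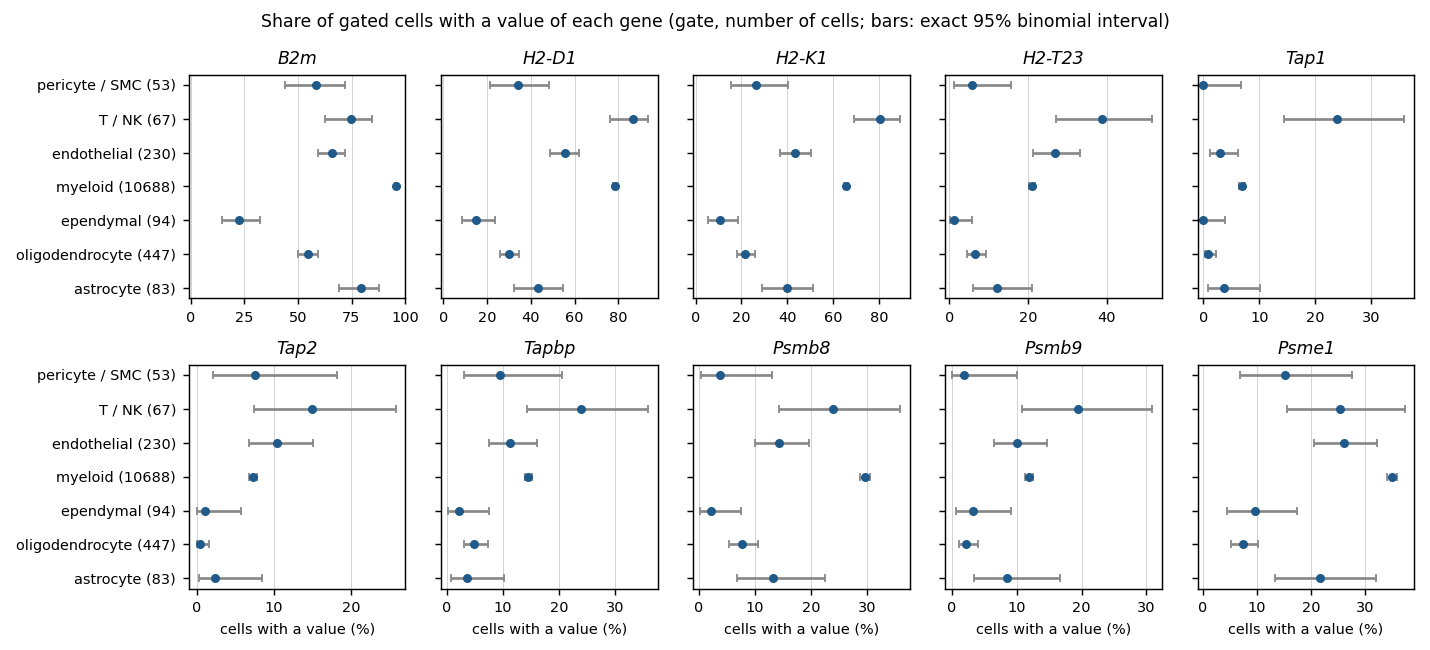
Percent of gated cells with a value of each member (x axis, 1 panel a gene) in the 7 lineage gates (y axis, with the number of cells), with exact 95% binomial intervals as bars. The shares pool sets that the gates hold in unequal parts. T or NK cells lead in 7 panels and myeloid cells in 3 (B2m, Psmb8 and Psme1), the lead in H2-D1 turning to myeloid cells without sets D and E (87.9% against 88.1%), and H2-D1 stands at 86.6% of T or NK cells and 14.9% of ependymal cells.

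Endothelial cells were compared with oligodendrocytes, 2 cell types that differ in their contact with blood-borne lymphocytes. A member was called higher where its mean was at least 1.5 times the other, among genes with a value in at least 10% of the cells of either gate. A gene could thus enter through the group where it was high, here and in the comparisons below. The shares over all genes tested were taken under the same limit. Of the 10 members, 9 could be tested in this way and 8 were higher in endothelial cells, where 65.2% of all 2030 genes tested were also higher, and none was lower, where 13.4% of the genes were. The median ratio was 2.28 over the members tested and 2.62 over all genes tested, so the members did not stand out from the general excess of values in endothelial cells, whose number of genes was larger. The 8 were H2-D1 (1.97 times), H2-K1 (2.28 times), H2-T23 (4.23 times), Tap2 (26.2 times, against 2 oligodendrocytes with a value), Tapbp (2.27 times), Psmb8 (1.85 times), Psmb9 (4.42 times) and Psme1 (3.89 times). B2m was 1.20 times as high and Tap1 was below the 10% limit. Only B2m, H2-D1 and H2-K1 passed that limit in oligodendrocytes, and the other members tested entered through endothelial cells alone. Among cells with 400 to 700 genes, 107 endothelial cells and 108 oligodendrocytes, 6 members were higher, with H2-K1 at 3.59 times and Psmb8 at 1.43 times. Without set F, 5 members were higher.

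Within each of the 6 sets, 7 of the 10 members had a higher mean in endothelial cells than in oligodendrocytes in all 6, as had 51.2% of the genes tested. Here and in the later counts over sets, members below the 10% limit were counted too. The shares of the genes tested beside these counts are over genes that passed it. These were H2-D1, H2-K1, H2-T23, Tap2, Tapbp, Psmb9 and Psme1. For H2-D1 the means in endothelial cells were 1.49, 2.09, 1.78, 0.786, 0.517 and 1.08 in sets A to F, against 1.30, 1.04, 0.742, 0.0789, 0.0822 and 0.490 in oligodendrocytes. Endothelial cells were thus higher in every set, by little in set A and by the widest ratio in set D. For H2-K1 the means were 0.829, 1.38, 1.44, 0.143, 0.121 and 1.08 in endothelial cells, against 0.582, 0.766, 0.312, 0.0263, 0.0411 and 0.306 in oligodendrocytes. B2m was higher in endothelial cells in 5 sets and lower in set A.

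In myeloid cells against oligodendrocytes the ratios of the members lay further above those of all genes tested. All 8 members that could be tested were higher in myeloid cells, where 49.9% of 1311 genes tested were. Of the 8, only B2m, H2-D1 and H2-K1 passed the 10% limit in both gates. The others entered through myeloid cells, where they were high, so that the count does not stand apart from the limit. The median ratio was 3.85 over these members and 1.49 over all genes tested. The ratios ran from 3.004 for Tapbp to 5.40 for Psmb9, with 3.59 for B2m, 3.62 for H2-D1, 4.16 for H2-K1 and 5.35 for Psme1. In all 6 sets, 9 of the 10 members were higher in myeloid cells (46.1% of the genes tested were), the exception being Tap1 with 5 sets. Tap1 and Tap2 were below the 10% limit. The count stayed at 8 among cells with 400 to 700 genes and without sets D and E.

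Endothelial cells against myeloid cells split the pathway. Of 9 members tested, 4 were lower in endothelial cells (B2m at 0.334, H2-D1 at 0.544, H2-K1 at 0.549 and Psmb8 at 0.453 times the myeloid mean) and 1 was higher (Tap2 at 1.52 times), while 21.2% of 2179 genes tested were lower and 52.5% higher. B2m was lower in endothelial cells in all 6 sets, H2-D1 and H2-K1 in 5 each and Psmb8 in 4. Without sets D and E, 3 members were lower, as H2-K1 then stood at 0.698 times the myeloid mean. The call of Tap2 lies at the limit, with 24 endothelial cells with a value, and was lost among cells with 400 to 700 genes, when cells were scaled to a common total and when set A, set C, set D or set F was left out. Without sets D and E, which held 28 and 58 of the 230 endothelial cells, Tap2 was 1.45 times as high and H2-T23 1.53 times, so that the 1 member called was then H2-T23. Over all sets H2-T23 was 1.30 times as high, which is below the size asked for, but its mean was higher in endothelial cells in all 6 sets, which held for no other member and for 38.8% of the genes tested. Its means were 0.488, 0.444, 0.312, 0.179, 0.138 and 0.423 in endothelial cells of sets A to F, against 0.288, 0.299, 0.192, 0.107, 0.113 and 0.260 in myeloid cells. The 2 gates therefore moved together over the sets, and the lowest endothelial means were below the highest myeloid ones.

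T or NK cells against myeloid cells had 6 members higher (H2-K1 at 1.88, H2-T23 at 1.81, Tap1 at 3.25, Tap2 at 1.93, Tapbp at 1.57 and Psmb9 at 1.68 times), where 61.2% of 2538 genes tested were higher, and 2 lower (B2m at 0.366 and Psme1 at 0.592 times), where 23.9% were lower. Only sets A and B held 20 or more T or NK cells (21 and 27 cells), and set D held none. H2-K1, Tap1, Tap2 and Tapbp were higher in both sets, whereas H2-T23 and Psmb9 were higher in 1 of them. Among cells with 400 to 700 genes, with 25 T or NK cells left, 3 members were higher. Tap1 was not among them, with means of 0.08 in T or NK cells and 0.0735 in myeloid cells. T or NK cells had 6 members higher than endothelial cells, where 44.8% of the genes tested were, with Tap1 at 7.85 times and H2-K1 at 3.41 times. Pericytes or smooth muscle cells, the other cells of the vessel wall, had 5 of 9 members tested lower than endothelial cells, where 43.9% of the genes tested were lower, with H2-T23 at 0.235 times and Psmb9 at 0.174 times.

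Ependymal cells, which line the central canal, had the lowest shares of the 4 class I chains although they had many genes with a value (median 719.5). Psme1 had a value in 9.57% of them, against 7.38% of oligodendrocytes, and Psmb9 in 3.19% against 2.24%. Endothelial cells had 9 of 9 members tested higher than ependymal cells, where 37.3% of 2876 genes tested were higher and 43.8% lower. The median ratio was 6.72 over the members and 0.851 over all genes tested. Only B2m (22.3%), H2-D1 (14.9%) and H2-K1 (10.6%) passed the 10% limit in ependymal cells. The other members entered through endothelial cells, where they were high, so that the count does not stand apart from the limit. Ependymal cells against oligodendrocytes had all 3 members that could be tested lower (B2m at 0.220, H2-D1 at 0.281 and H2-K1 at 0.340 times), where 14.5% of the genes tested were lower and 72.1% higher. Of the 94 ependymal cells, 60 were in sets D and E, in which the class I chains were low in other gates too. Without these sets B2m had a value in 44.1% of 34 ependymal cells, against 70.5% of 298 oligodendrocytes, and H2-D1 in 32.4% against 42.3%. Within both sets D and E the mean of B2m was lower in ependymal cells than in oligodendrocytes, and those of H2-D1 and H2-K1 were lower in 1 of these sets. Endothelial means were above ependymal means in both sets for 8 members, the exceptions being Tap1 and Psmb9.

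Since myeloid RNA was present in all gates, the members were set beside 5 myeloid genes that were not used for the gates (Cd68, Fcgr3, Lgmn, Mpeg1 and Spi1, chosen after the data had been seen). Their summed mean in endothelial cells was 11.4% of that in myeloid cells, whereas the members reached between 33.4% (B2m) and 151.9% (Tap2) of the myeloid mean, with H2-T23 at 130.2%, H2-K1 at 54.9% and H2-D1 at 54.4%. In 6 of 6 sets 9 of the 10 members were above this summed level, and Tap1 was in 3. In oligodendrocytes the summed mean of the 5 genes stood at 15.5% of the myeloid one. B2m (27.9%), H2-D1 (27.6%), H2-K1 (24.05%) and Psmb8 (24.5%) were above that sum in 6 of 6 sets. Psme1 (18.7%) and Psmb9 (18.5%) were above it in 3 sets and Tap2 (5.79%) in 2. Single genes of the 5 could lie above members. In set B Spi1 stood at 53.8%, above B2m (39.6%), H2-D1 (37.6%), H2-K1 (38.3%) and Psmb8 (41.2%). In set A Mpeg1 stood at 44.8%, above B2m (42.8%) and H2-K1 (36.2%) and below H2-D1 (48.8%). In ependymal cells the 5 genes stood at 7.16%, with B2m at 6.13%, H2-D1 at 7.74% and H2-K1 at 8.17% of the myeloid mean, all close to the 5 genes. Within sets D and E, where the summed mean of the 5 genes stood between 0.736% and 2.96%, B2m and H2-K1 were above it in both sets and H2-D1 in 1. In T or NK cells the 5 genes stood at 12.4%, and the members ran from 36.6% (B2m) to 324.7% (Tap1).

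**Figure D2:**
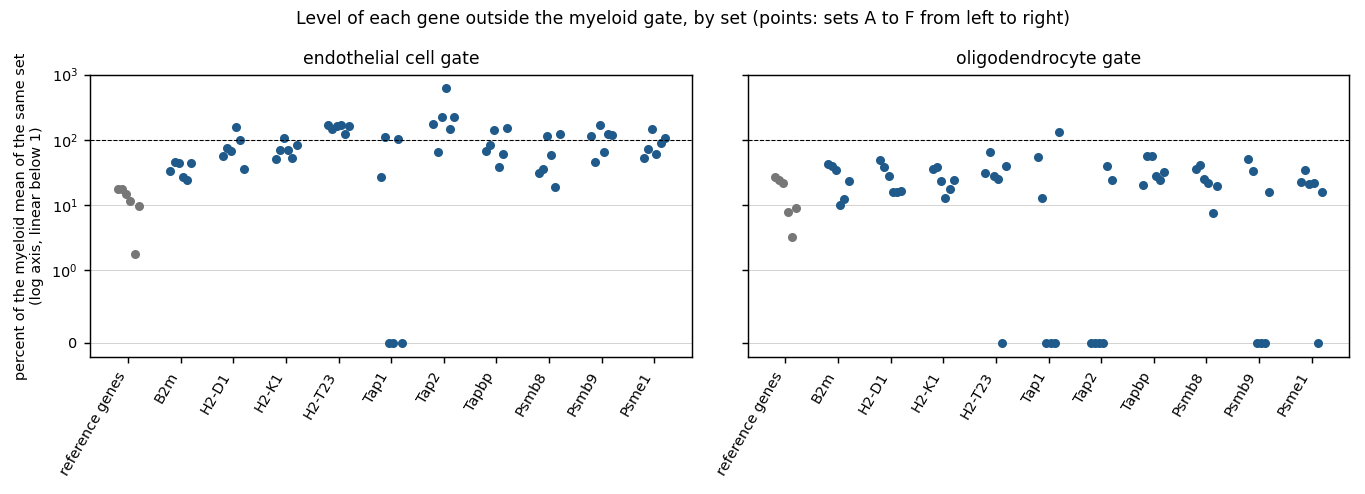
Mean of each gene in endothelial cells (left) and oligodendrocytes (right) as a percent of the mean in myeloid cells of the same set (y axis, logarithmic above 1 and linear below), with 1 point a set and the dashed line at 100%. Grey points are the sum of Cd68, Fcgr3, Lgmn, Mpeg1 and Spi1, which pooled over sets lies at 11.4% in endothelial cells and 15.5% in oligodendrocytes, below B2m at 33.4% and 27.9%.

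The other genes of class I presentation and of antigen presentation were counted from lists. Of 13 further class I heavy chain genes in the table, 3 could be tested between endothelial cells and oligodendrocytes. All 3 were higher in endothelial cells, as were 65.2% of all genes tested. H2-Q7, a Qa-2 chain, had a value in 64.2% of T or NK cells, 20.5% of myeloid cells, 15.2% of endothelial cells and 2.68% of oligodendrocytes. Fcgrt, the IgG transport receptor that also pairs with β2-microglobulin, had a value in 21.3% of endothelial cells, 4.58% of myeloid cells and 0.447% of oligodendrocytes. H2-Q4 had a value in 28.4% of T or NK cells, 13.04% of endothelial cells and 4.25% of myeloid cells, and H2-Q6 in 23.9% of T or NK cells and 6.53% of myeloid cells. Reads of H2-Q6, H2-Q7 and other near-identical chains may have been split or dropped in counting, so these shares are uncertain. For the members themselves, none of the 511 windows of 90 bases in the last 600 bases of the longest transcript of each gene occurred in another gene, other than 9.78% of those of H2-T23, which Rab33b and Hook2 share.

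Of 8 genes of peptide loading and trimming, 5 could be tested. All 5 were higher in endothelial cells than in oligodendrocytes, where 65.2% of all genes tested were. Against myeloid cells, 4 of 5 were lower in endothelial cells (21.2% of all genes tested were). All 5 were lower in T or NK cells than in myeloid cells (23.9% of all genes tested were). Calr, the chaperone calreticulin, had a value in 24.8% of endothelial cells, 36.9% of myeloid cells and 12.98% of oligodendrocytes, and Pdia3, its partner oxidoreductase, in 23.5%, 34.9% and 12.8% of these cells. Hspa5 had a value in 22.2% of endothelial cells and 32.1% of myeloid cells. Sec61b, a subunit of the translocation channel, was highest in ependymal cells, with a value in 34.0% of them. The loading chaperones, which all cells use for other proteins, thus did not share the higher pooled means of Tap1 and Tap2 in T or NK cells than in myeloid cells.

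Psmb10 and Psme2, the remaining interferon-inducible proteasome genes, were both higher in endothelial cells than in oligodendrocytes, where 65.2% of all genes tested were. Both were also higher in myeloid cells than in oligodendrocytes, where 49.9% of all genes tested were. Psme2 had a value in 22.4% of T or NK cells, 16.0% of myeloid cells and 5.15% of oligodendrocytes. Of the 16 constitutive proteasome genes, 2 of 10 tested were higher in myeloid cells than in oligodendrocytes, where 49.9% of all genes were, and 10 of 12 tested were higher in ependymal cells than in oligodendrocytes, where 72.1% of all genes were. Psma7 had a value in 28.7% of ependymal cells, 23.04% of endothelial cells, 20.004% of myeloid cells and 12.98% of oligodendrocytes, and Psmb6, the constitutive counterpart of Psmb9, in 23.4% of ependymal cells, 13.8% of myeloid cells and 9.17% of oligodendrocytes. Psma3 led in endothelial cells, with a value in 23.9% of them against 12.8% of myeloid cells, and Psmb2 in pericytes or smooth muscle cells, with a value in 30.2%.

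Class II genes serve the presentation of extracellular antigen. All 6 tested were lower in endothelial cells than in myeloid cells, where 21.2% of all genes tested were lower. Of 4 tested, none was higher and 1 was lower in endothelial cells than in oligodendrocytes. Among all genes tested there, 65.2% were higher and 13.4% lower. Cd74, the class II invariant chain, had a value in 28.3% of endothelial cells, 76.8% of myeloid cells and 36.9% of oligodendrocytes, and H2-Aa in 11.7%, 56.8% and 17.4% of these cells, and H2-Ab1 and H2-Eb1 had values in 55.2% and 45.3% of myeloid cells. Of 15 regulators of class I, 6 of 9 tested were higher in T or NK cells than in myeloid cells. Among all genes tested, 61.2% were. In endothelial cells, 4 of 4 tested were higher than in oligodendrocytes, as were 65.2% of all genes tested. Nlrc5, the class I transactivator, had a value in 37.3% of T or NK cells, 5.33% of myeloid cells, 1.74% of endothelial cells and 0.447% of oligodendrocytes. Ifngr1, a chain of the interferon-γ receptor, had a value in 56.7% of T or NK cells, 17.9% of myeloid cells and 4.78% of endothelial cells. Nfkb1 and Irf2 had values in 10.9% and 19.1% of endothelial cells and in 9.72% and 10.7% of myeloid cells.

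By the shares over the 7 gates, the 5 genes whose pattern was most like the summed shares of the members, among 4320 genes, were Eef2 (Pearson r = 0.976), Capg (0.951), Gm44511 (0.947), AW112010 (0.941) and Ptprj (0.921). The gates share libraries and carried-over RNA, and the order rests on 7 points. AW112010 had a value in 38.8% of T or NK cells, 26.0% of myeloid cells, 17.4% of endothelial cells and 4.92% of oligodendrocytes.

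Within myeloid cells, the class I chains differed widely between the sets. B2m averaged 4.85, 5.77, 4.49, 2.51, 2.41 and 5.14 in myeloid cells of sets A to F, H2-D1 averaged 2.67, 2.76, 2.65, 0.503, 0.521 and 2.98, and H2-K1 averaged 1.61, 2.00, 1.33, 0.205, 0.233 and 1.28. Sets D and E were the lowest for all 10 members, and for H2-D1 and H2-K1 they were far below the other 4, which lay close together for H2-D1. B2m together with H2-D1 or H2-K1 had a value in 37.4% of myeloid cells in set D and in 37.4% in set E, and in 90.3% to 95.6% in the other sets. In sets D and E B2m itself still had a value in 84.6% and 83.0% of myeloid cells. Psmb8 averaged 0.394, 0.504, 0.300, 0.183, 0.181 and 0.312 and Psme1 averaged 0.506, 0.611, 0.363, 0.300, 0.306 and 0.392 in sets A to F, so these proteasome genes spread less over the sets than H2-D1 and H2-K1 did. Psmb9 ran between 0.0549 and 0.194 and H2-T23 between 0.107 and 0.299. Median gene numbers of myeloid cells were 498 and 495 in sets D and E and ran from 414 (set C) to 646 (set A) in the others. Oligodendrocytes had the same low sets, with B2m means of 2.08, 2.29, 1.55, 0.250, 0.301 and 1.20 in sets A to F.

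**Figure D3:**
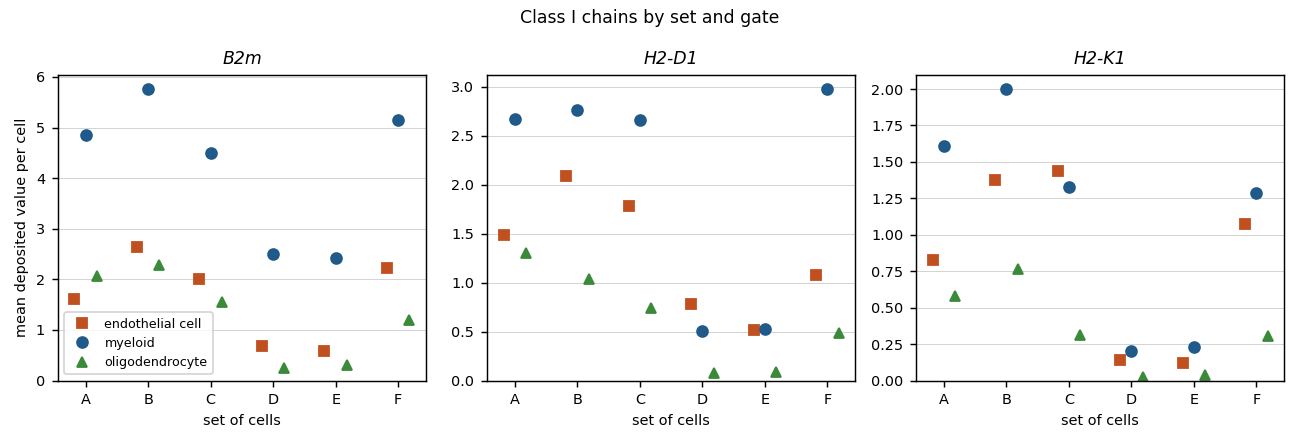
Mean deposited value per cell (y axis) of B2m, H2-D1 and H2-K1 in endothelial cells (squares), myeloid cells (circles) and oligodendrocytes (triangles) of sets A to F (x axis). Sets D and E are low in all 3 gates, with H2-K1 at 0.205 and 0.233 in myeloid cells against 1.28 to 2.00 in the other sets.

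Homeostatic microglia markers such as P2ry12, Tmem119 and Siglech were counted in each myeloid cell, and cells with 5 or more of 16 (2738 cells) were set against cells with 2 or fewer (4755 cells). Pooled over sets B2m, H2-D1 and H2-K1 were lower in cells with many homeostatic markers, and H2-T23 was not (0.257 with many and 0.226 with few). B2m averaged 4.25 in cells with many and 4.76 in cells with few, H2-D1 averaged 1.86 and 2.502, and H2-K1 averaged 1.11 and 1.53. No member passed the size of 1.5 in either direction, where 35.2% of 1349 genes tested were higher and 4.82% lower in cells with many markers. Within sets the direction turned for H2-K1. It averaged 1.73, 2.61, 1.84, 0.229, 0.254 and 1.48 in cells with many homeostatic markers of sets A to F, against 1.55, 1.81, 1.21, 0.175, 0.167 and 1.15 in cells with few, and so was higher in every set. B2m averaged 5.28, 7.22, 5.73, 2.52, 2.40 and 5.70 in cells with many, against 4.64, 5.32, 4.27, 2.52, 2.43 and 4.55 in cells with few, a difference seen in sets A, B, C and F and not in D and E. Sets D and E, with their low class I levels, held 791 and 630 of the 2738 cells with many homeostatic markers and 63 and 54 of the 4755 cells with few, and the pooled means mix these sets in unequal parts.

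In all 6 sets, 6 of the 10 members (H2-K1, H2-T23, Tap1, Tapbp, Psmb8 and Psmb9) were higher in cells with many homeostatic markers, and so were 43% of the genes tested. Of the 6, Tap1 was below the limit of 10% of cells that the genes tested had passed. The cells with many markers had more genes with a value (median 610 against 497). Among cells with 400 to 700 genes, 7 of the 10 members (B2m, H2-D1, H2-K1, H2-T23, Tap1, Tapbp and Psmb8) were higher in all 5 sets that could be compared, where 24.6% of the genes tested were.

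**Figure D4:**
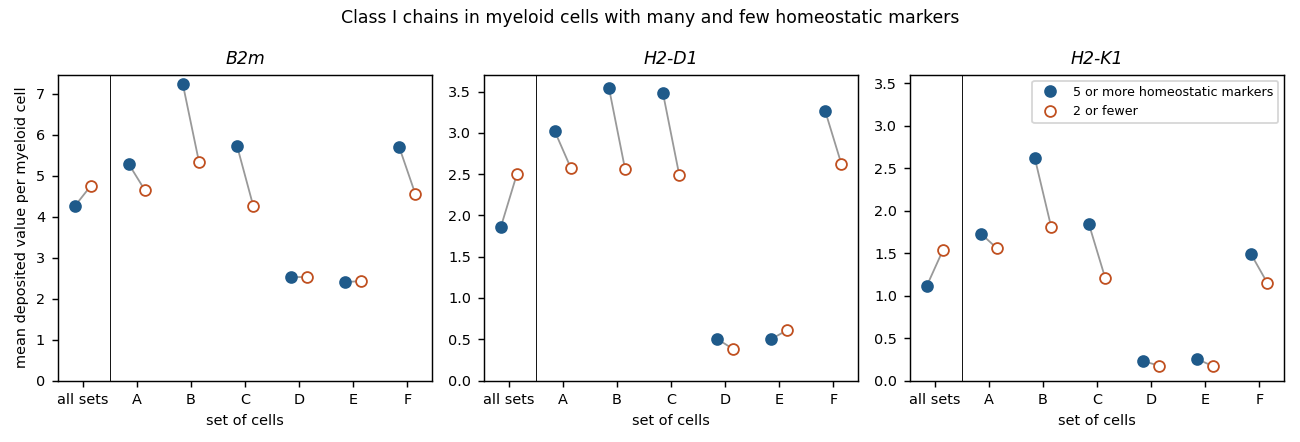
Mean deposited value (y axis) of B2m, H2-D1 and H2-K1 in myeloid cells with 5 or more homeostatic markers (filled) and with 2 or fewer (open), over all sets and in each set (x axis). The pooled pair runs the other way from the pairs in sets A, B, C and F, with H2-K1 at 1.11 and 1.53 over all sets and 2.61 and 1.81 in set B.

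Interferon response genes such as Isg15, Ifit3 and Irf7 were counted in the same way. Cells with 3 or more of 41 (3563 cells) had 6 members higher than cells with 1 or none (4898 cells), where 15% of 1315 genes tested were higher and 2.13% lower, namely H2-K1 (1.66 times), H2-T23 (1.56 times), Tapbp (1.56 times), Psmb8 (1.69 times), Psmb9 (1.81 times) and Psme1 (1.61 times). Tap1 and Tap2 were below the 10% limit over all sets and could not be called. Without sets D and E no member was called higher, and with cells scaled to a common total 2 were. Of these 6 members, H2-T23, Psmb8 and Psme1 were higher in all 6 sets, H2-K1 and Psmb9 in 5 and Tapbp in 4. Over all members, 7 of the 10 members (B2m, H2-D1, H2-T23, Tap1, Tap2, Psmb8 and Psme1) were higher in 6 of 6 sets in cells with many interferon response genes. Of the genes tested, which unlike Tap1 and Tap2 had passed the 10% limit, 33.1% were. Among cells with 400 to 700 genes, B2m and Psme1 were higher in all 5 sets compared, where 7.76% of the genes tested were.

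Set B held most of the cells with many interferon response genes (1987 of 3563) and was the only set with 20 or more cells at 8 or more such genes. From none to 1–2, 3–4, 5–7 and 8 or more interferon response genes, Psmb8 had a value in 24.7%, 33.1%, 36.1%, 45.9% and 56.2% of the myeloid cells of set B, and Psme1 in 29.3%, 36.7%, 41.9%, 49.6% and 60.5%. Psmb9 stayed between 14.4% and 17.6% up to 5–7 genes and stood at 31.5% in cells with 8 or more. Median gene numbers moved with these classes, from 415.5 to 736.5. Among cells of set B with 400 to 700 genes, Psmb8 had a value in 25.0%, 35.5%, 34.2%, 41.0% and 57.4% and Psme1 in 29.8%, 39.1%, 39.8%, 48.6% and 50.8%, while Psmb9 stood at 14.3% with none and 21.3% with 8 or more. The order did not hold in all sets, since in set A Psmb8 had a value in 36.5% of cells with 3–4 and 32.1% with 5–7 interferon response genes, and Psmb9 in 15.02% and 11.2%. In set B H2-K1 averaged 1.61, 1.90, 2.04, 2.11 and 2.35 over the classes, and B2m averaged 5.55, 5.53, 5.78, 6.01 and 6.52. The mean of Psmb8 was 0.362 with no interferon response gene and 0.796 with 8 or more. By the ratio of these means H2-K1 and B2m moved less over the classes than Psmb8, whereas by their difference they moved more.

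**Figure D5:**
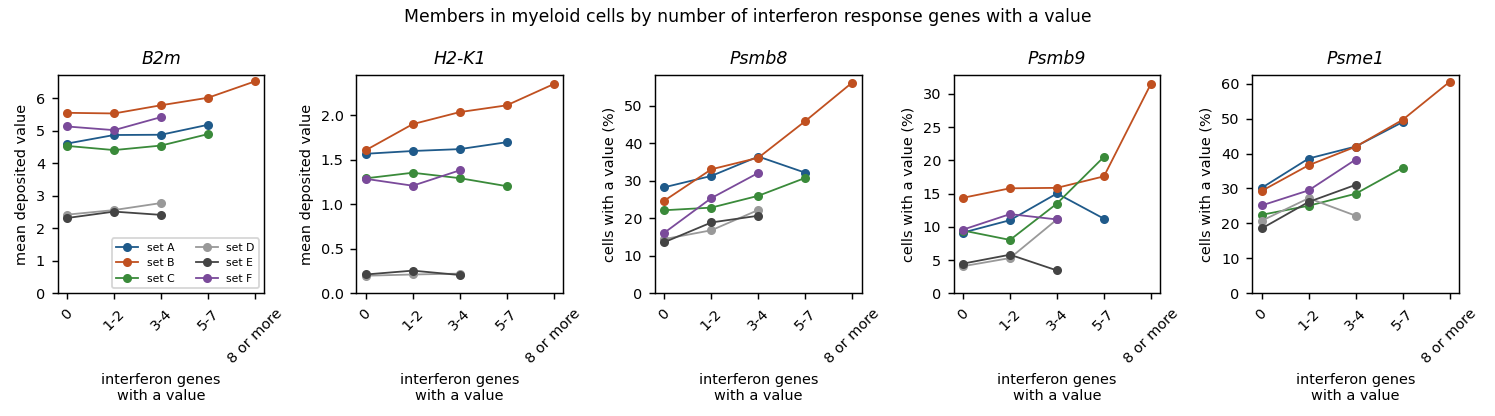
B2m and H2-K1 (mean deposited value) and Psmb8, Psmb9 and Psme1 (percent of cells with a value) in myeloid cells by the number of interferon response genes with a value (x axis), 1 line a set, for classes of 20 or more cells. Psmb8 in set B runs between 24.7% and 56.2%, and the lines of sets D and E lie lowest for B2m and H2-K1.

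Disease-associated (DAM) markers, among them Apoe, Spp1 and Lpl, were counted likewise. Cells with 9 or more of 16 (2979 cells) had 5 members higher than cells with 5 or fewer (3458 cells), where 24.9% of 1430 genes tested were higher, namely H2-D1 (1.90 times), H2-K1 (2.11 times), H2-T23 (1.74 times), Tapbp (1.79 times) and Psmb9 (1.504 times). Set D held none and set E 1 of the cells with many DAM markers, and they held 1027 and 822 of those with few, and without these sets 1 member was higher. In the 4 sets that could be compared, H2-K1 averaged 1.70, 2.31, 1.42 and 1.35 in cells with many DAM markers of sets A, B, C and F, against 1.35, 1.79, 1.36 and 1.16 in cells with few. H2-D1, H2-K1, Tap2, Tapbp and Psmb8 were higher in all 4 sets, where 41.5% of the genes tested were. Tap2 was below the limit that the genes tested had passed. Median gene numbers were 674 in cells with many DAM markers and 460 in cells with few, and among cells with 400 to 700 genes 3 members (H2-K1, Tap2 and Tapbp) were higher in all 4 sets, where 21.5% of the genes tested were.

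Macrophage or monocyte markers, among them Ly6c2, Ccr2 and Arg1, gave 6 members higher in cells with 2 or more of 16 (4385 cells) than in cells with none (3493 cells), where 16% of 1298 genes tested were higher. Without sets D and E none was. Within sets A, B, C and F, 2 of the 10 members (Tap2 and Psmb8) were higher in all 4, where 29.4% of the genes tested were. Tap2 was below the limit that the genes tested had passed. H2-D1, H2-K1, H2-T23, Tapbp and Psmb9 were higher in 3 of these sets. Among cells with 400 to 700 genes no member was higher in all 4, where 13.9% of the genes tested were. In set B H2-K1 averaged 2.03 in cells with many of these markers and 2.02 in cells with none.

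Proliferating cells of the myeloid gate, with 3 or more of 9 cell cycle markers such as Mki67 and Top2a, were almost all in set B (220 of 252 cells). There they could be compared with 1744 myeloid cells without such markers. Over all sets median gene numbers were 676 in proliferating cells and 526 in cells without such markers. Over all sets 5 members were higher in them, where 51% of 1662 genes tested were, and none was lower, where 6.08% were. In set B the means of H2-T23, Tap1, Tap2, Psmb8, Psmb9 and Psme1 were higher in proliferating cells, and those of B2m, H2-D1, H2-K1 and Tapbp were not. Psmb8 averaged 0.809 in proliferating cells and 0.483 in the others, Psme1 averaged 0.895 and 0.597, Psmb9 averaged 0.327 and 0.190, and H2-T23 averaged 0.414 and 0.302, whereas B2m averaged 5.74 and 5.87, H2-D1 averaged 2.55 and 2.84 and H2-K1 averaged 1.94 and 2.05.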

How the data were processed

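Single cells of the spinal cord were measured in 6 droplet libraries. The authors mapped reads to GRCm38 in Cell Ranger 7.1.0 and counted intronic reads too, then joined and filtered the libraries in Seurat 4.3.0.1. The deposited table was used as a score per gene and cell, because its totals per cell lie in a narrower range than UMI counts usually do, and how it was made from UMIs is not given in the sources used here. Depth is thus unknown, and no doublet caller was run. Cells that met 2 lineages were left out.

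Members and gene lists were chosen with earlier results of these data known, and the gate limits were set after the data had been seen. The text names all 10 members, up to 4 genes of each list with the highest mean in any gate, and the 5 genes most like the members. Tools were Python (3.11.15) with pandas (2.3.3), scipy (1.17.1) and numpy (2.4.6), and no count model was fitted. Where genes were called by size, the call was tested on simulated data for endothelial cells against oligodendrocytes (2030 genes). Of 100 genes made 3-fold higher, 100 were called, of 100 made 3-fold lower, 77 were, and 129 of 1830 unchanged genes (7.05%) were called in error.

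Alternatives were cells scaled to a total of 10000, the filters stated for these data (12556 cells), 400 to 700 genes per cell, 2 markers more, at most 4 myeloid markers outside the myeloid gate, a size of 2 times, no filter on low values and leaving out each set. Leaving out sets D and E together was added after the data had been seen. Sequences are from RefSeq (GRCm38.p6) and gene positions from GENCODE vM21.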

Additional observations from a re-analysis of the deposited data

How the results depend on the processing

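Over 20 counts of members called by size and 14 alternatives, 241 values stayed within 1.5 times of the count given and 39 did not, and with 2 markers more or with no filter on low values all 20 stayed. At a size of 2 times, members higher numbered 1 with many DAM markers, 1 in T or NK cells against myeloid cells, 3 with many proliferating markers, 1 with many macrophage or monocyte markers, 0 in endothelial cells against myeloid cells and 0 with many interferon response genes, and members lower numbered 2 in endothelial cells and 1 in T or NK cells against myeloid cells. In cells with 400 to 700 genes, members higher numbered 3 for macrophage or monocyte markers, 3 for interferon response genes, 3 in T or NK cells and 0 in endothelial cells against myeloid cells, and 1 was lower with many homeostatic markers. With cells scaled to 10000, 2 were lower with many homeostatic markers, 2 higher with many interferon response genes and 0 higher in endothelial cells against myeloid cells. With the stated filters, and with at most 4 myeloid markers outside the myeloid gate, 0 were higher in endothelial cells against myeloid cells, and with the stated filters 1 was lower in T or NK cells. Without sets D and E, members higher numbered 2 with many homeostatic markers, 0 with many interferon response genes, 0 with many macrophage or monocyte markers and 1 with many DAM markers. The cause of these shifts was not tested.

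Leaving out each set in turn, members higher ran from 2 to 9 for DAM markers, from 2 to 8 for macrophage or monocyte markers, from 3 to 8 for interferon response genes, from 3 to 5 for proliferating markers, from 5 to 8 in endothelial cells against oligodendrocytes and from 0 to 1 in endothelial cells against myeloid cells, and members lower ran from 1 to 3 in T or NK cells against myeloid cells, from 0 to 2 for homeostatic markers (2 without set A or set B), from 4 to 5 in endothelial cells against myeloid cells and from 0 to 1 for proliferating markers. The count for DAM markers was 9 without set A and 8 without set B, and that of members lower in T or NK cells was 1 without set A. The low counts came without set D for DAM, macrophage or monocyte and interferon response genes, without set B for interferon response and proliferating markers, and without set F for endothelial cells against oligodendrocytes. Of single ratios called by size, 4 turned round, namely Psmb9 with many DAM markers (0.973 without sets D and E), Psmb9 (0.639) and Tapbp (0.997) in T or NK cells against myeloid cells with 400 to 700 genes, and Tap1 with many proliferating markers (from 0.524 without set B to 2.71 without set A). Of the shares of cells with a value, 643 stayed within their interval and 117 moved outside it. No paired analysis was possible because cells carry no replicate number and no test between groups of libraries was made. The small gates limit precision, with 53 to 94 cells in 4 of them.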

Other observations

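Sets D and E stood apart from the other sets in the class I chains and in which cells they held. They had 0 and 1 T or NK cells, 0 and 1 myeloid cells with many DAM markers, and 12 and 9 myeloid cells with many macrophage or monocyte markers, and they held 791 and 630 myeloid cells with many homeostatic markers. The labels tie no set to a library.

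In endothelial cells, which are few in each set (26 to 58 cells), H2-T23 had a value in 41.5%, 35.6%, 28.1%, 17.9%, 10.3% and 34.6% of cells in sets A to F. Tap2 had a value in 12.2%, 6.67%, 12.5%, 17.9%, 5.17% and 15.4%, and so did not share the low values of set D.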
